A study of Mus musculus with 6 samples.

Results

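Binding of p65, a subunit of the transcription factor NF-κB, was examined at 9 genes of the IL-1 family of cytokines and receptors in mouse epidermal cells. The genes are Il1a, Il1b, Il18, Il1rn, Il36rn, Il1r1, Il1rl2, Il1rap and Il1r2, taken from 21000 protein-coding genes of the annotation. A p65 peak was counted for one of them when the transcription start site nearest to the middle of the peak belonged to it. This rule gave 21 of the 18708 peaks of the series, and peaks with a middle within 50 kb of a member start site were examined as well.

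Chromatin immunoprecipitation followed by sequencing (ChIP–seq) maps the places where a protein sits on DNA, which appear as peaks of sequenced fragments. All mice were C57bl/6J, and 3 groups were compared. Adult mice were 17 to 25 weeks old and untreated, whereas aged mice were injected intraperitoneally from 73 weeks of age for 12 weeks, either with a control IgG (aged/IgG control) or with blocking antibodies against IL-17A and IL-17F (aged/anti-IL-17A/F). Their lists are called control and anti-IL-17 here. The cells were a trypsin suspension of whole epidermis, so a peak cannot be attributed to a cell type, and since peak lists hold no RNA, markers of epidermal cells could not be checked.

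The reads of 4 mice per condition were merged before peaks were called, which left 1 list per condition with no replicates and no test between conditions. Peaks numbered 8525 in adult, 4169 in control and 6014 in anti-IL-17. The other 3 of the 6 samples are inputs and were not analysed here. The names given to the peaks within the lists go against 1 label. All 8525 peaks of the list labelled adult carry names that begin with "Treated", as do all 6014 of anti-IL-17, whereas all 4169 of control begin with "Control" and 0 peaks are named for adult. The labels were kept, and counts of sites that involve the list labelled adult were also made after exchanging it for the anti-IL-17 list. For each peak, the strength is the fold enrichment over local background in the deposited list, and its percentile among all peaks of the same list is given so that a peak can be placed without comparing folds between pools. How many reads a single peak rests on is unknown.

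IL-1α and IL-1β (Il1a and Il1b) are cytokines that bind the receptor IL-1R1, which pairs with the accessory protein encoded by Il1rap and signals through MyD88 to NF-κB. The antagonist encoded by Il1rn occupies the same receptor without activating it, and IL-1R2 is a decoy that captures the cytokine without signalling. The IL-36 receptor, encoded by Il1rl2, uses the same accessory protein and is blocked by the antagonist encoded by Il36rn, and IL-18 acts through a receptor of its own. Keratinocytes are a known source of IL-1α and carry the IL-36 receptor.

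The peaks fell at 11 sites, a site being a place where peaks of different lists overlap or a single peak stands alone. Each site was named after the member gene and the distance from its start to the middle of the strongest peak assigned to it. The sequences below, read from the RefSeq sequence of GRCm38.p6, the assembly of mm10, are those on which the comparison of motifs rests. All are on the plus strand. In the first and the second, capitals mark matches to the NF-κB consensus motif, a 10-base pattern, and these are the only matches inside the peaks at any of the 11 sites. In the third, capitals mark 1 of 2 matches near the summit to a looser form of that motif, which asks only for 3 G, then any 5 bases, then 2 C. It is shown because this strong site was missing from control. In the others, capitals mark the AP-1 consensus TGANTCA, the site of another family of transcription factors. The first is intergenic, upstream of Il1a. The second to the fourth lie in introns of Il1r2 or Il1rl2, the fifth lies upstream of Il1b and the last upstream of the first exon of Il1rn.

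Il1a −20.8 kb, chr2:129330750-129330830: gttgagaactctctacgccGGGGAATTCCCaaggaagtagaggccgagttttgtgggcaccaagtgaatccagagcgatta
Il1r2 +490 bp, chr1:40085181-40085220: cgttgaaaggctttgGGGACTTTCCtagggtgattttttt
Il1rl2 +17.6 kb, chr1:40342185-40342224: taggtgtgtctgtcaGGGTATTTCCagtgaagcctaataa
Il1rl2 +34.4 kb, chr1:40358918-40358998: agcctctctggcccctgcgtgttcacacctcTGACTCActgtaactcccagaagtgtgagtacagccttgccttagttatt
Il1b −36.6 kb, chr2:129407800-129407836: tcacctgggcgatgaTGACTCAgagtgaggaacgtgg
Il1rn −101 bp, chr2:24336704-24336740: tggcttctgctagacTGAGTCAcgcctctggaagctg

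A p65 peak was assigned to 7 of the 9 members in adult, against 23.0% of all protein-coding genes. In control, 4 members had an assigned peak, against 12.9% of all genes, and in anti-IL-17 4 did, against 17.4%. Il1a, Il1rl2 and Il1r2 were bound in every list. Il1r1 was bound in adult and control, Il1rap in adult and anti-IL-17, and Il1b and Il1rn in adult alone. Il18 and Il36rn had no assigned peak in any list. The number of assigned peaks was 9 in adult and 6 in each aged list. Within 50 kb of a start site, a peak was found for 7 members in adult (43.4% of all genes), 5 in control (27.5%) and 5 in anti-IL-17 (35.0%). In both aged lists 1 peak, the one assigned to Il1a, supplied 2 of the 5, since it also lay within 50 kb of Il1b. By both counts the share of members exceeded that of all genes in each list. The members were chosen with earlier results of these data known, so this excess is a description and not a test. When only assigned peaks within 10 kb of the start were counted, 3 members were left in adult (17.4% of all genes), 2 in control (8.72%) and 1 in anti-IL-17 (12.1%), the last no longer above all genes. The Il1r2 +490 bp site was called in all lists, but in adult and anti-IL-17 its peak was assigned to the noncoding gene Gm16894. By distance alone, 4 adult, 2 control and 2 anti-IL-17 peaks lay within 10 kb of a member start. The members are not independent of each other, since 3 of them share a stretch of chromosome 1 and Il1a and Il1b have start sites 61167 bp apart.

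**Figure D1:**
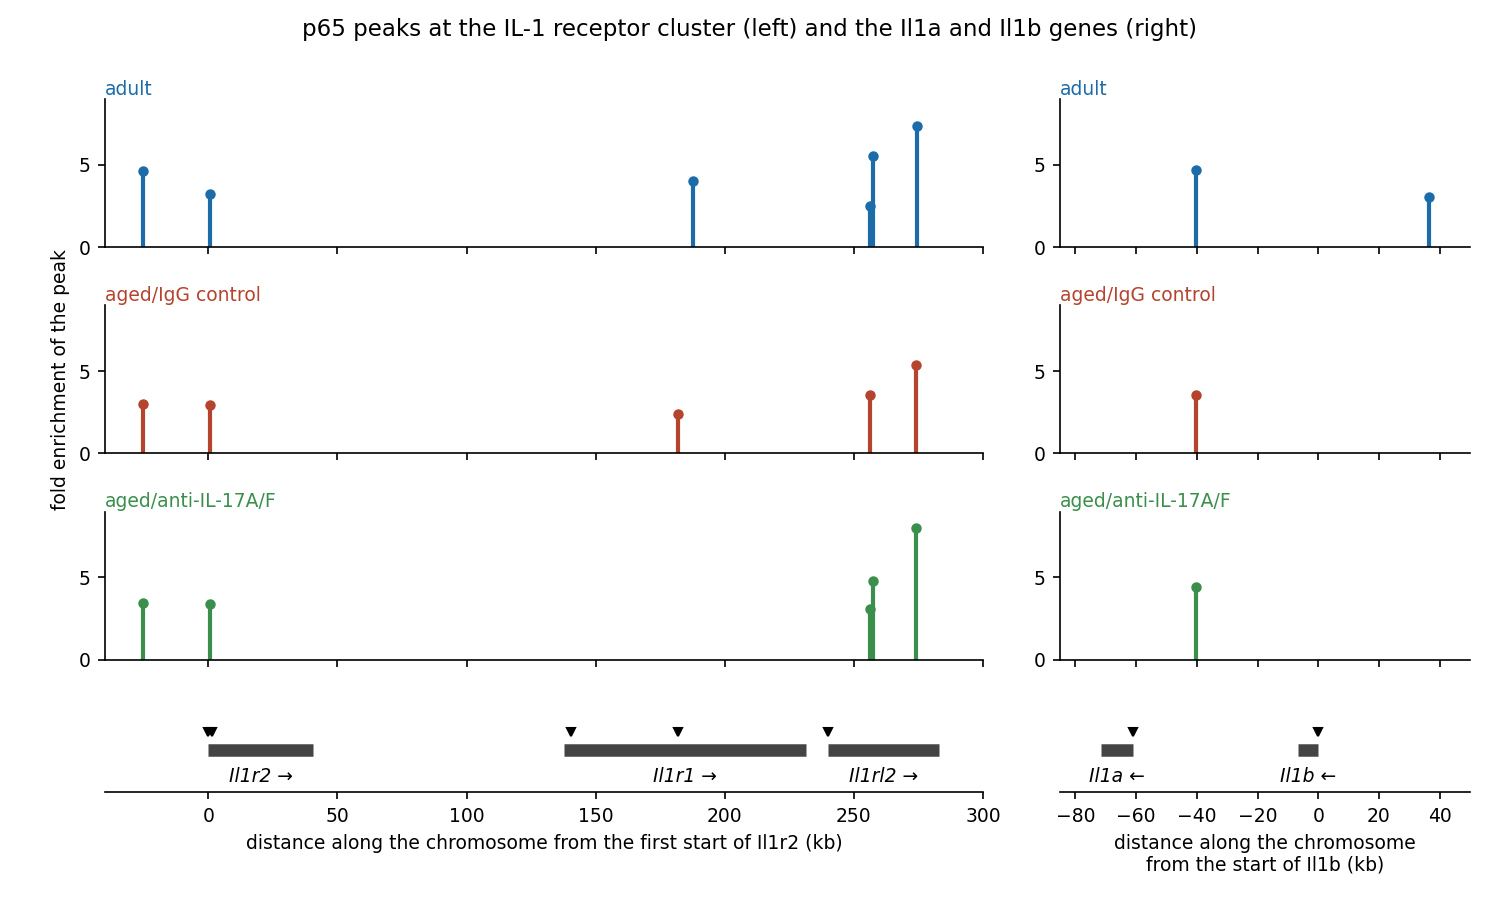
p65 peaks along the chromosome at Il1r2, Il1r1 and Il1rl2 (left, distance in kb from the first start of Il1r2) and at Il1a and Il1b (right, distance in kb from the start of Il1b), with 1 row per list. Each stem stands at the summit of a peak and its height is the fold enrichment, bars are genes, arrows give their direction and triangles mark start sites. The tallest stem in every list is the intronic Il1rl2 site at 7.39 in adult, 5.38 in control and 8.02 in anti-IL-17, and the gene bodies of Il1a and Il1b carry no stem.

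Il1a, the ligand that keratinocytes hold preformed, was bound at a single intergenic site in all 3 lists. Together the peaks covered chr2:129330456-129331085, between Il1a and Il1b, upstream of the start of Il1a. Fold enrichment was 4.69 in adult, 3.53 in control and 4.41 in anti-IL-17. These values stood at percentiles 72.6, 39.9 and 66.9 of their lists. The lists differ in length, and among the 3403 sites with 1 peak in each list the site stood at percentiles 39.9, 31.5 and 45.9, below the middle in every list. The summits of the 3 lists lay within 41 bp of each other. The run GGGGAATTCCC, shown above, holds 2 overlapping matches to the NF-κB consensus, at 16 and 17 bp from the adult summit and within 100 bp of the summit in each list. The middle of the peak was 40368 bp from the start of Il1b in adult, 40429 bp in control and 40366 bp in anti-IL-17, within the 50 kb window of that gene in every list.

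Il1b, the ligand that is cleaved from a precursor before release, had a peak of its own only in the list labelled adult. It lay at chr2:129407560-129407868, in intergenic sequence 36575 bp upstream of the start of Il1b. Its fold enrichment of 3.03 stood at percentile 27.0, among the weaker adult peaks. The closest peak was 76645 bp away in control and 76554 bp away in anti-IL-17, and in both it was the Il1a site. Peaks of this strength are often missing elsewhere. When the adult list was divided by strength into deciles of equal size, 82.5% (95% Wilson interval 79.8 to 84.9%, counting error only) of the peaks in the decile of this peak had no control peak and 65.8% (62.5 to 68.9%) had no anti-IL-17 peak. The site held an AP-1 match 71 bp from its summit and no match to the NF-κB consensus.

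Il18, whose product is also released after cleavage, had no peak within 50 kb in any list. The nearest peak was 62395 bp from its start in adult, 62448 bp in control and 62371 bp in anti-IL-17, and it was assigned to Pih1d2 in each.

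Il1rn, the IL-1 receptor antagonist, had a promoter peak only in the list labelled adult, at chr2:24336562-24336955, which spans the first of the 3 start sites of the gene. It was among the weakest of the adult list, at percentile 2.69, with a fold enrichment of 2.31 and 3.80 as its −log10 q. Of adult peaks in the lowest decile, 86.6% (84.2 to 88.8%) had no control peak and 73.2% (70.1 to 76.0%) had no anti-IL-17 peak. The nearest peak of either aged list was more than 0.8 Mb away, at distances of 810939 bp in control and 810912 bp in anti-IL-17. A further 2 adult peaks within 50 kb of Il1rn, with fold enrichments of 3.61 and 2.63, were assigned to the neighbouring gene Psd4.

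Il36rn, the antagonist of the IL-36 receptor, is listed in the annotation under the older symbol Il1f5 and had no peak within 50 kb in any list. The nearest adult peak was the Il1rn promoter peak at 59488 bp, and the nearest of the aged lists were 870809 bp away in control and 870783 bp away in anti-IL-17.

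Il1r1, the signalling receptor for IL-1, was bound at different places in 2 lists and at neither in the third. In control, a peak at chr1:40266442-40266839 covered the second of the 2 start sites of the gene, with 2.40 as its fold enrichment and 3.81 as its −log10 q. It stood at percentile 1.76, close to the weakest of that list. In adult, the peak lay inside the first intron at chr1:40272406-40272787, with its middle 6011 bp downstream of that start, and it had a fold enrichment of 4.0 at percentile 61.3. A gap of 5567 bp separated the 2 peaks. The peak nearest to Il1r1 in anti-IL-17 was 74250 bp from a start site and belonged to Il1rl2.
For the adult intronic peak, 45.2% (41.9 to 48.5%) of adult peaks in the same decile had no control peak and 24.8% (22.0 to 27.8%) had no anti-IL-17 peak. For the control peak, 16.1% (12.9 to 19.9%) of peaks in its decile had no adult peak and 34.8% (30.4 to 39.5%) had no anti-IL-17 peak. The promoter of this start, taken as 250 bases before to 50 after it, was the only member promoter of 13 with an NF-κB consensus match, from −232 to −223, a place that the peak did not reach. The motif was found in 4.51% of all 32851 promoters. The match is on the minus strand and, written on the plus strand, lies in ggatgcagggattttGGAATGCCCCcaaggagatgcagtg at chr1:40266339-40266378, where capitals mark it.

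Il1rl2, the signalling receptor for IL-36, carried the strongest p65 binding among the members in every list. It had 3 intronic sites. The strongest, in intron 9 of 10 at chr1:40358687-40359237, had fold enrichments of 7.39 in adult, 5.38 in control and 8.02 in anti-IL-17. It ranked 767 of 8525, 866 of 4169 and 396 of 6014, which are percentiles 91.0, 79.2 and 93.4. Among the sites called in every list, these were 78.2, 75.3 and 88.7. The summits lay within 28 bp of each other. An AP-1 match lay 6 bp from the strongest summit and another 118 bp from it, and no NF-κB consensus match was found in any of the 3 peaks. The genes with the most similar percentiles over the 3 lists, by the sum of the absolute differences, were Nupr1 (1.74), Skint4 (2.90) and Map2k3 (3.42).
The other 2 sites of Il1rl2 both lie in intron 4 of 10, and the lists differed in which of them were called and how they ranked. The first, at chr1:40340591-40341020, was called everywhere, with fold enrichments of 2.49 in adult, 3.57 in control and 3.08 in anti-IL-17. Its percentiles were 5.91, 42.0 and 26.9, and 1.31, 33.6 and 12.1 among the sites called in every list, so that it was highest in control both ways. Ranked by −log10 q, they were 12.1, 43.1 and 26.8 of the whole lists. The second, at chr1:40342003-40342471, had a fold enrichment of 5.55 in adult and 4.78 in anti-IL-17, at percentiles 81.4 and 72.4, and was not called in control. Where both were called, the second was the stronger, 2.23 times the first in adult and 1.55 times in anti-IL-17, with the summits 1343 and 1346 bp apart. In control the first site was the nearest peak to the second, 983 bp away.
Few peaks in the deciles of this site lacked a control peak, but the site lay in the lower part of both deciles. In the next weaker decile, 25.8% of adult peaks and 22.8% of anti-IL-17 peaks lacked one. In the adult decile of the second site, 6.57% (5.10 to 8.44%) of peaks lacked a control peak, and in its anti-IL-17 decile 9.65% (7.54 to 12.3%) did. Among all peaks at least as strong as this one, 41 of 1594 in adult (2.57%, 1.90 to 3.47%) and 42 of 1659 in anti-IL-17 (2.53%, 1.88 to 3.40%) had no control peak. These shares include the strongest decile of each list, where 0% lacked one, so they are not the share at the strength of this site. The second site had the run GGGTATTTCC, shown above, 12 bp from its adult summit, which differs from the NF-κB consensus at 1 base. With 1 mismatch allowed, 69.4% of all adult peaks and 74.4% of all anti-IL-17 peaks had a match.

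**Figure D2:**
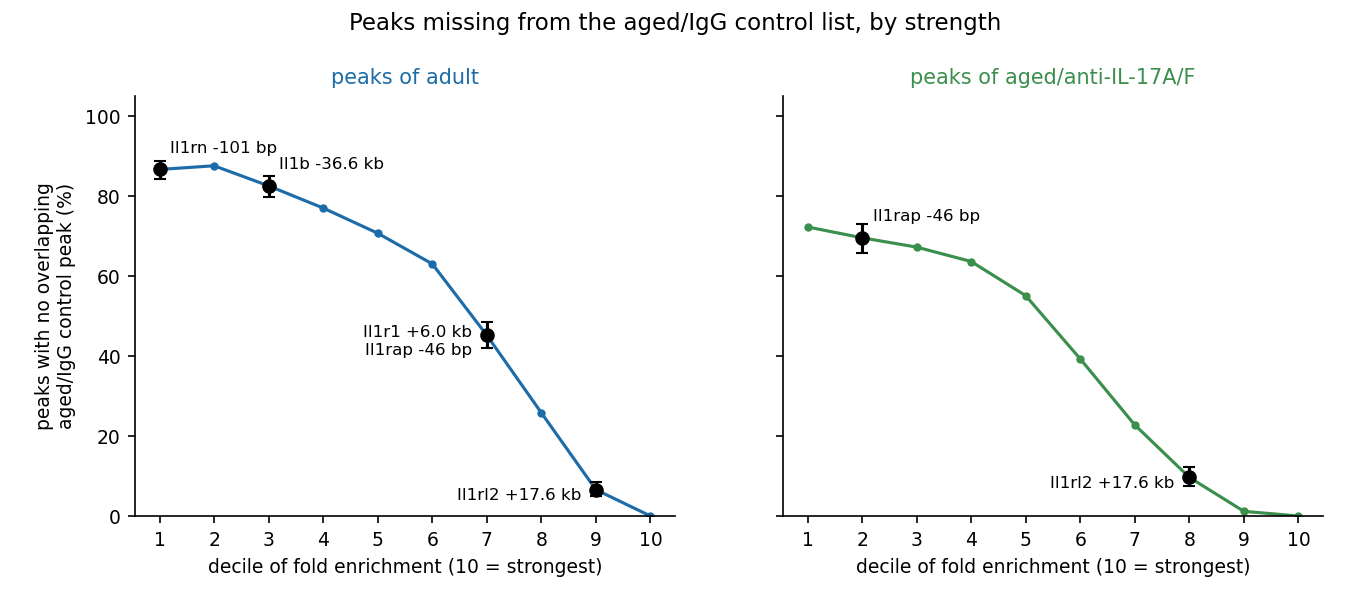
Share of peaks (%) in adult (left) and anti-IL-17 (right) with no overlapping control peak, by decile of fold enrichment from weakest to strongest. Black points mark the deciles that hold a member site missing from control, with 95% Wilson intervals for counting error. The Il1rl2 +17.6 kb site stands where 6.57% of adult and 9.65% of anti-IL-17 peaks are missing, and the Il1b and Il1rn sites where over 80% are.

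Il1rap, the accessory protein shared by the IL-1 and IL-36 receptors, was bound at its promoter in adult and anti-IL-17. The peaks together covered chr16:26581400-26581909, across the single start site of the curated transcripts. Fold enrichment was 4.36 at percentile 67.7 in adult and 2.73 at percentile 12.1 in anti-IL-17. Ranked by −log10 q, these peaks stood at percentiles 70.5 and 22.2. In control no peak was called there, and the nearest was 180055 bp away, assigned to Cldn1. In its adult decile, 45.2% (41.9 to 48.5%) of peaks had no control peak, and in its anti-IL-17 decile 69.6% (65.8 to 73.1%) had none. The sequence within 100 bp of the summit was 75.6% G and C. It held no match to the NF-κB consensus and 5 to the looser pattern, which was found at 67.9% of all adult peaks, 72.8% of control and 70.3% of anti-IL-17 peaks.

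Il1r2, the decoy receptor, was bound at 2 sites in every list. The first lies in intergenic sequence upstream of the gene at chr1:40059184-40059591. Its fold enrichment was 4.64 in adult, 2.99 in control and 3.47 in anti-IL-17, at percentiles 72.0, 17.6 and 43.1, and at 38.9, 12.5 and 21.9 among the sites called in every list. It had no match to the NF-κB consensus and none to AP-1.
The second lies in the first intron at chr1:40084991-40086030, between the 2 start sites of Il1r2, where the noncoding gene Gm16894 is annotated too. Fold enrichment was 3.23 in adult, 2.93 in control and 3.41 in anti-IL-17, at percentiles 36.2, 15.03 and 40.6. Among the sites called in every list it stood at 8.99, 10.7 and 20.2, lowest in adult. The peaks differed in extent, with widths of 925, 402 and 718 bp, and the summits were spread over 199 bp. As a result, the middle of the peak was nearest to Il1r2 in control and nearest to Gm16894 in the other lists. The NF-κB consensus match GGGACTTTCC at chr1:40085196-40085205 lay inside all 3 peaks, but within 100 bp of the summit only in control.

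**Figure D3:**
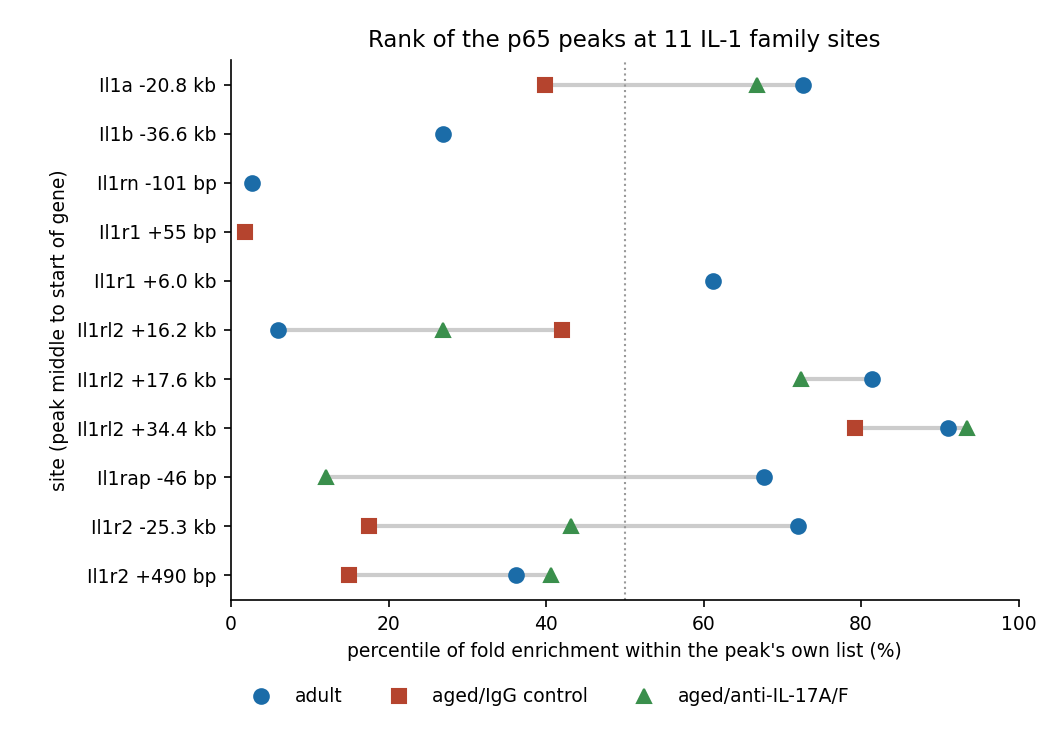
Percentile of fold enrichment within its own list (horizontal axis, %) of each peak at the 11 sites (vertical axis, named by gene and distance to the start), with 1 marker per list. The dotted line is the middle of a list and a missing marker means that no peak was called. Of the 5 sites called everywhere, control is lowest at 4 and highest at Il1rl2 +16.2 kb, where it stands at percentile 42.0.

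Of the 11 sites, 5 were called in all 3 lists, 2 in adult and anti-IL-17, and 4 in a single list. Of the 10 adult sites, 5 had no control peak, close to the 54.5% of all adult peaks, and 3 had no anti-IL-17 peak, against 39.6%. Of the 7 anti-IL-17 sites, 2 had no control peak, against 40.1%, and 0 had no adult peak, against 14.4%. Of the 6 control sites, 1 had no adult peak, against 6.69%, and 1 had no anti-IL-17 peak, against 13.4%. Both times this was the weak peak at the second start of Il1r1. The 5 of 10 is near the share of all peaks, and the other counts rest on 1 to 3 sites or none. With each list reduced to its strongest 4169 peaks, 3 of 6 adult sites had no control peak (27.0% of all adult peaks) and 3 of 6 control sites had no adult peak (26.6%). With 6 sites in each list, these counts are equal by construction. Of the same 6 adult sites, 2 had no anti-IL-17 peak (25.8%). Under the same rule, 2 of 6 control sites (26.8%) had no anti-IL-17 peak, 1 of 5 anti-IL-17 sites had no control peak (27.1%) and 1 of 5 had no adult peak (25.7%). After the exchange of lists, 2 of 7 sites counted as adult sites missing from control, against 40.1% of all peaks, and 5 of 10 as anti-IL-17 sites missing from control, against 54.5%.

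At the 5 sites called everywhere, the percentile was lowest in control at 4, against 61.2% of the 3403 sites with 1 peak in each list. When percentiles were taken among these 3403 sites only, so that all lists had equal length, control was lowest at 3 of the 5, against 32.8%. The bound members differ between the lists, and so do the lengths of the lists. For the 3 members bound in every list, Il1a, Il1rl2 and Il1r2, the median percentile of the strongest peak was 72.6 in adult, 39.9 in control and 66.9 in anti-IL-17, and 39.9, 31.5 and 45.9 at equal length.

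Matches to the NF-κB consensus were counted at the member sites. Within 100 bp of the summit, 1 of 10 adult site peaks held a match, against 28.5% of all adult peaks. In control it was 2 of 6, near the 37.8% of all control peaks, and in anti-IL-17 1 of 7, against 34.9%. Equally wide windows placed 2000 bp from the summits on both sides held it in 2.18%, 1.95% and 2.26%. The numbers of site peaks are small, and peaks of the same site share their sequence. The site peaks had a median percentile of 64.5 in adult, 28.7 in control and 43.1 in anti-IL-17, and no share among peaks of equal strength was taken. Counted by site, 2 of 11 had a match, at Il1a and in the first intron of Il1r2, and no share over all sites was taken for this count. The AP-1 consensus was found near the summit of 3 of 10 adult site peaks (13.2% of all adult peaks), 1 of 6 in control (14.1%) and 1 of 7 in anti-IL-17 (14.4%). These were at Il1b, Il1rn and the strongest site of Il1rl2, and no site had both motifs.

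**Figure D4:**
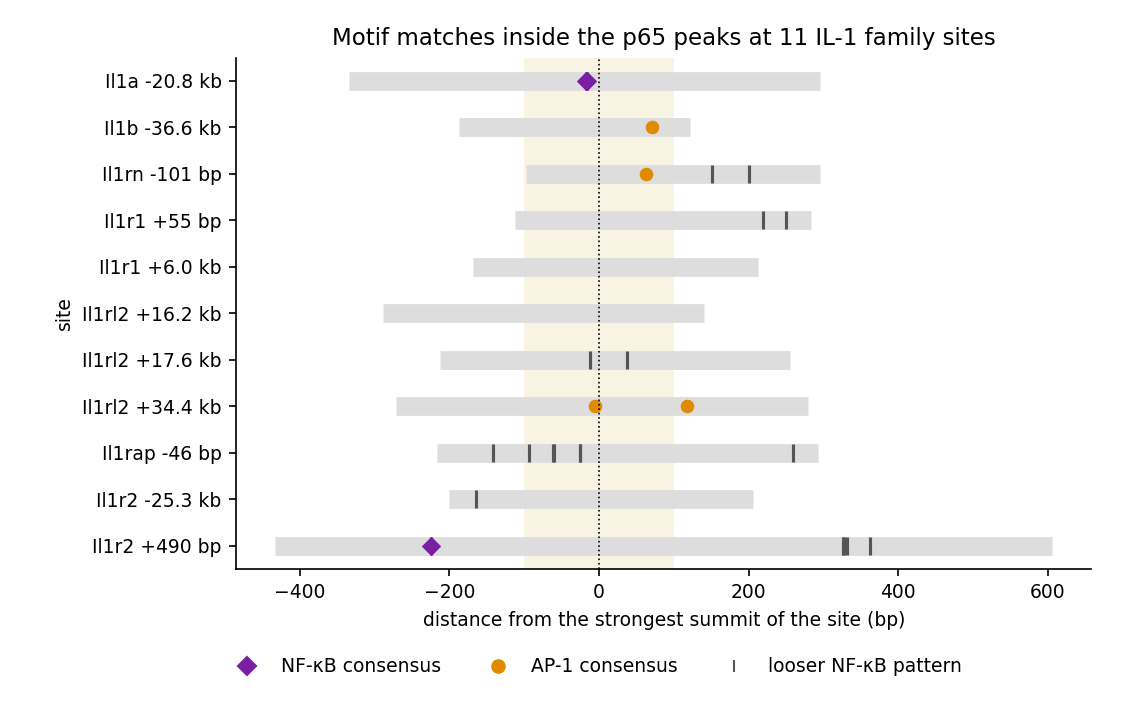
Motif matches (symbols) inside the 11 sites, by distance in bp from the summit of the strongest peak of each site. Grey bars show the extent of the overlapping peaks and the shaded band the 100 bp to either side of the summit. The NF-κB consensus appears at Il1a −20.8 kb and Il1r2 +490 bp only, the AP-1 consensus at 3 sites, and ticks mark the looser NF-κB pattern.

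Of 33 other genes of the IL-1 pathway, which include further ligands, receptors, the MyD88 adaptor and its kinases, and inflammasome components, 26 had no assigned peak in any list. With 7 bound in adult, 4 in control and 5 in anti-IL-17, their number was near the shares of all genes (23.0%, 12.9% and 17.4%). Map3k7, the kinase TAK1, was bound at its promoter, with fold enrichments of 11.7 in adult, 6.77 in control and 9.87 in anti-IL-17, at percentiles 97.9, 89.2 and 96.5. A distal peak assigned to the same gene, 185222 bp downstream of its start in adult, was called in all lists too, at 9.98, 7.04 and 8.24 (percentiles 96.2, 90.1 and 93.9). Another distal peak of Map3k7 was assigned in adult alone, at 3.01 (percentile 26.2). Casp4, an inflammatory caspase, was bound at its promoter in all lists, at 9.08, 7.74 and 8.91. Peli1, a ubiquitin ligase of the receptor complex, had a distal peak in all lists, at 6.52, 5.26 and 5.18 (percentiles 87.2, 77.9 and 77.2). It also had a promoter peak, 159 bp from its start, assigned in anti-IL-17 alone, at 3.53 (percentile 45.4). In the anti-IL-17 decile of this promoter peak, 55.1% of peaks had no control peak and 15.8% no adult peak. Pycard, the inflammasome adaptor ASC, was bound at its promoter at 3.18, 3.42 and 3.74 (percentiles 33.6, 36.1 and 51.6). Nlrp10 was bound in adult (4.23, percentile 65.7) and anti-IL-17 (3.79, 53.5). Traf6 (2.68, 11.8) and Tab3 (3.33, 40.1), both of which act with TAK1, were bound in adult alone. Such absences were common. In the adult decile of Traf6, 87.6% of peaks had no control peak and 69.6% no anti-IL-17 peak. Tab3 lay between deciles where 77.0% and 70.7% had no control peak, and 59.4% and 50.1% no anti-IL-17 peak. In the deciles of Nlrp10, 45.2% of adult and 39.3% of anti-IL-17 peaks had no control peak. The ligands Il36a, Il36b, Il36g and Il33 and the receptors Il1rl1, Il18r1 and Il18rap were among those with no peak.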

How the data were processed

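The 3 p65 ChIP–seq peak lists were analysed. According to the methods and the submitters' processing notes, the authors trimmed with Trimmomatic 0.36, mapped to mm10 by BWA, pooled the mice of each condition, deduplicated and downsampled the pools, and ran MACS2 with a q threshold of 0.01. Whether the inputs were used as background is not stated. The deposited values per peak are a score, a fold enrichment (a ratio to local background), a summit, and p- and q-values as −log10. Merging removes the spread between mice, and a peak near the threshold can be called in one list and missed in another with little difference in signal.

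Peaks were assigned to the nearest start of curated RefSeq transcripts of GRCm38.p6, and called shared when they overlapped by at least 1 bp. Motif matches were counted on either strand, up to 100 bp from summits. Overlapping matches were counted separately, and every match to the NF-κB consensus is also a match to the looser pattern. Shares have 95% Wilson intervals for counting error. The IL-1 family members, the list of 33 pathway genes and the measures were chosen with earlier results of these data known. All 9 members are named, with the pathway genes bound in 1 or 2 lists and the strongest of the others. The 4 symbols of the IL-36 genes were matched through synonyms. Alternatives were stricter q values, equal peak numbers, other start sites, windows, overlaps and motif patterns, other rankings, and an exchange of 2 lists. Allowing 1 mismatch in the motif and taking percentiles at equal list length or over members bound in every list were added after seeing the data. The cut at the strength of the Il1rl2 +17.6 kb site was set by the value of that site. The overlap and assignment steps were tested on randomly shifted peaks against bedtools 2.31.1, and the motif step on planted motifs. Python 3.11.15 was used with numpy 2.4.6, pandas 2.3.3, scipy 1.17.1, pysam 0.24.0 and matplotlib 3.10.9.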

Additional observations from a re-analysis of the deposited data

How the results depend on the processing

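Each condition is 1 pool, so no replicate could be left out and no paired analysis was possible. Of 117 alternative values of the main counts and medians, 79 stayed within their limit, which was 1.5 times for counts and the narrower 95% Wilson interval for median percentiles, and 38 did not. The percentiles of the strongest peak of single members were also ranked by −log10 q and by score. By the same interval, 28 of these values moved and 2 did not. With only peaks within 10 kb of the start, members with an assigned peak numbered 3 in adult, 2 in control and 1 in anti-IL-17, with as many peaks; the shares of all genes under this rule were 17.4%, 8.72% and 12.1%. With a −log10 q of at least 10, control kept 2 members (9.63% of all genes) and 3 peaks. Peaks within a 10 kb window numbered 4 in adult, 2 in control and 2 in anti-IL-17, and within 100 kb 11 in anti-IL-17. With as many peaks per list as the smallest has, 6 adult peaks lay within 50 kb, and missing sites numbered 3 of 6 for adult against control (27.0% of all peaks), 2 of 6 for adult against anti-IL-17 (25.8%), 3 of 6 for control against adult (26.6%), 2 of 6 for control against anti-IL-17 (26.8%), and 1 of 5 for anti-IL-17 against each of adult (25.7%) and control (27.1%). With a −log10 q of at least 5, 0 of 5 control sites were missing from adult (6.63%) and 0 of 5 from anti-IL-17 (13.0%). With overlap over at least 50% of both peaks, 2 of 6 control sites were missing from adult (12.5%). After the exchange of lists, 2 of 7 sites counted as adult and missing from control (40.1%), 0 of 7 as adult and missing from anti-IL-17 (14.4%), 3 of 10 as anti-IL-17 and missing from adult (39.6%), and 5 of 10 as anti-IL-17 and missing from control (54.5%). NF-κB matches anywhere in the peak were at 2 of 10 adult (34.9% of all peaks) and 2 of 7 anti-IL-17 site peaks (41.9%). The looser pattern gave 3 in adult (67.9%) and 3 in anti-IL-17 (70.3%), GGANNNNCC 5 in adult, 4 in control and 6 in anti-IL-17 (64.6%, 69.6% and 67.2% of all peaks), and 1 mismatch 5 in adult (69.4%) and 3 in anti-IL-17 (74.4%). The median percentile of the strongest peaks, taken over all bound members of a list and so over different genes in each, was 28.7 in control and 55.0 in anti-IL-17 by fold enrichment, 34.6 and 57.5 by −log10 q, and 34.7 and 57.4 by score. The cause of these differences was not tested. The depth behind each peak is unknown, so a missing peak is not shown to be an absence of binding.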
